A study of Mus musculus with 15 samples.

Results

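A set of 9 complement genes was followed in mouse perigonadal fat: C1qa, C1qb, C1qc, C2, C4b, C3, Cfb, Cfd and C3ar1. They were taken by name, through their Entrez IDs, from a table of 35794 gene IDs, and all 9 members were found and passed the filter on low counts. Complement is a cascade of blood and tissue proteins that coats microbes and debris. The classical branch starts when C1q, built from the C1qa, C1qb and C1qc chains, binds a target and leads to cleavage of C4 and C2, while the alternative branch runs through factor B and factor D. Both branches cleave C3, and C3ar1 is a receptor for a fragment released from it. Fat is a known source of factor D, which was found in adipocytes and named adipsin, and macrophages are the usual source of C1q.

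Poly(A) RNA of C57BL/6 mice, all 14 weeks old, was sequenced in 3 groups. Weight loss mice (SWAP) ate a 60% high-fat diet for 5 weeks from 8 weeks of age and then chow for 1 week. Obese mice (HFD) were on the same high-fat diet from 8 weeks of age, and lean mice (RD) were given chow. The labels name no sex. Nothing beyond the design text says that the samples are independent, and the p-values assume that they are. The groups held 4 weight loss, 5 obese and 5 lean libraries of 13924729 to 33807807 counts. Weight loss replicate 5, with 229 counts in all, 1 of them on Cfd, was left out of all tests except those of an alternative fit named below. All 10 adipocyte markers averaged at least 1 CPM (counts scaled by TMM factors to a library of 1000000) in each group, and their summed level was 35157 to 42597 CPM in weight loss, 34187 to 41602 CPM in obese and 32385 to 44590 CPM in lean libraries. Transcripts of the epididymis, which adjoins the fat pad in males, summed to 2926 to 8169 CPM in obese replicates 2, 4 and 5, to 3339 CPM in the first lean library, and to 544 CPM or less elsewhere. The part of these transcripts in the results below was not tested beyond the fits named there.

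C1qa (136895916 to 136898844), C1qc (136889801 to 136892936) and C1qb (136880126 to 136886200) stand side by side on the minus strand of chromosome 4. C4b (34728139 to 34743902), Cfb (34856374 to 34862514), C2 (34862602 to 34882100) and C3 (57203967 to 57228136) lie on the minus strand of chromosome 17. Cfd is on the plus strand of chromosome 10 (79890853 to 79892655) and C3ar1 on the minus strand of chromosome 6 (122847140 to 122856157). Coordinates are those of the RefSeq table for GRCm38.p6, the assembly also called mm10, and all 9 genes are protein-coding. Promoter windows, from 250 bases before to 50 after the annotated start, were held by the RefSeq table for C1qb, C1qc, C3, C3ar1 and Cfd, 5 of the 9 members. The start used for the C1qc window, 136892914, lies 22 bases inside the gene end printed above, and the other 4 windows use the printed starts. Those of C1qb and C1qc are printed because these genes changed together, and that of Cfd because it changed the other way, all 5′ to 3′ on the gene's strand.
C1qb, chr4:136886151-136886450, minus strand: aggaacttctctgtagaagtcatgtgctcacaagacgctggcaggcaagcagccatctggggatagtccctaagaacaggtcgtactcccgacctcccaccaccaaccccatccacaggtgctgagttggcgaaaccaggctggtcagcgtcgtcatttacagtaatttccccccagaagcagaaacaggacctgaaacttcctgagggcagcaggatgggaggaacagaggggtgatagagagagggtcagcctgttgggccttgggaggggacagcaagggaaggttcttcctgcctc
C1qc, chr4:136892865-136893164, minus strand: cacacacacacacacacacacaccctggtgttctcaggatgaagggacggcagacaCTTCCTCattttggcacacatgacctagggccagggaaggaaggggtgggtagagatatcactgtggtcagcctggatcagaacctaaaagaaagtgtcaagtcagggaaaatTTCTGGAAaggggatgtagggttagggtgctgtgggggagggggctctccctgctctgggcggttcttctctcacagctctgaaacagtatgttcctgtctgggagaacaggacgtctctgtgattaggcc
Cfd, chr10:79890603-79890902, plus strand: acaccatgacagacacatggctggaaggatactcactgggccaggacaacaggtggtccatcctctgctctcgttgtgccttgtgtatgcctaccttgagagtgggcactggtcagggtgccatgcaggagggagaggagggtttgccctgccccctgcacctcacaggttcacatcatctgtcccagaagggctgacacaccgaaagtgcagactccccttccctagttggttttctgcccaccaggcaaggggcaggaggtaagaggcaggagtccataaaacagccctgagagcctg
Capitals mark matches, on either strand, to GAGGAAG (a PU.1-type motif), TTNCNNAA (C/EBP-type), TATAAA (the core promoter box) or longer motifs of the interferon-response, NF-kB and PPAR types. No 2 matches shown overlap. C1qc had a match to GAGGAAG on the opposite strand at bases 57 to 63 of its window, and 13.6% of 32851 promoter windows of this length held that motif. It also had a match to TTNCNNAA, again on the opposite strand, at bases 170 to 177, a pattern held by 40.7% of the windows. The C1qb and Cfd windows held none of the 6 motifs, which says only that these letters are not in these windows. Of the windows not printed, that of C3ar1 held TATAAA at bases 16 to 21, an offset of -235 from the annotated start. That of C3 held TATAAA at bases 265 to 270, an offset of 14 and so past the annotated start. It held TTNCNNAA at bases 181 to 188, 193 to 200 and 206 to 213. TATAAA was held by 13.6% of all windows, and the interferon-response, NF-kB and PPAR types by 3.44%, 0.411% and 0.0396%.

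Cfd was the most abundant member in every library. It took 0.523% to 1.22% of all counts in weight loss, 0.302% to 0.461% in obese and 0.763% to 1.26% in lean libraries. By CPM it ranked between 4 and 9 among all genes in weight loss, 7 and 11 in obese and 3 and 6 in lean libraries. Levels of different members were compared as CPM per kilobase of the longest protein-coding transcript. On that scale Cfd stood at 8001 ± 3819 in weight loss (SD, n = 4), 3998 ± 868 in obese (SD, n = 5) and 10951 ± 2982 in lean fat (SD, n = 5). C4b, which encodes the fourth component, and C3 came next after weight loss, at 350 ± 96.4 and 296 ± 66.2. In obese fat C1qa (280 ± 46.3) and C4b (253 ± 26.1) followed Cfd, and in lean fat C3 (245 ± 73.7) and C4b (223 ± 47.8). C3ar1 was the lowest member in each group, at 8.25 ± 4.9, 7.45 ± 2.6 and 2.80 ± 1.6 in weight loss, obese and lean fat. Between Cfd at the top and C3ar1 at the bottom, neighbours in this order overlapped within 1 SD, except C1qc above C2 in obese and C4b above C1qa in lean fat.

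**Figure D1:**
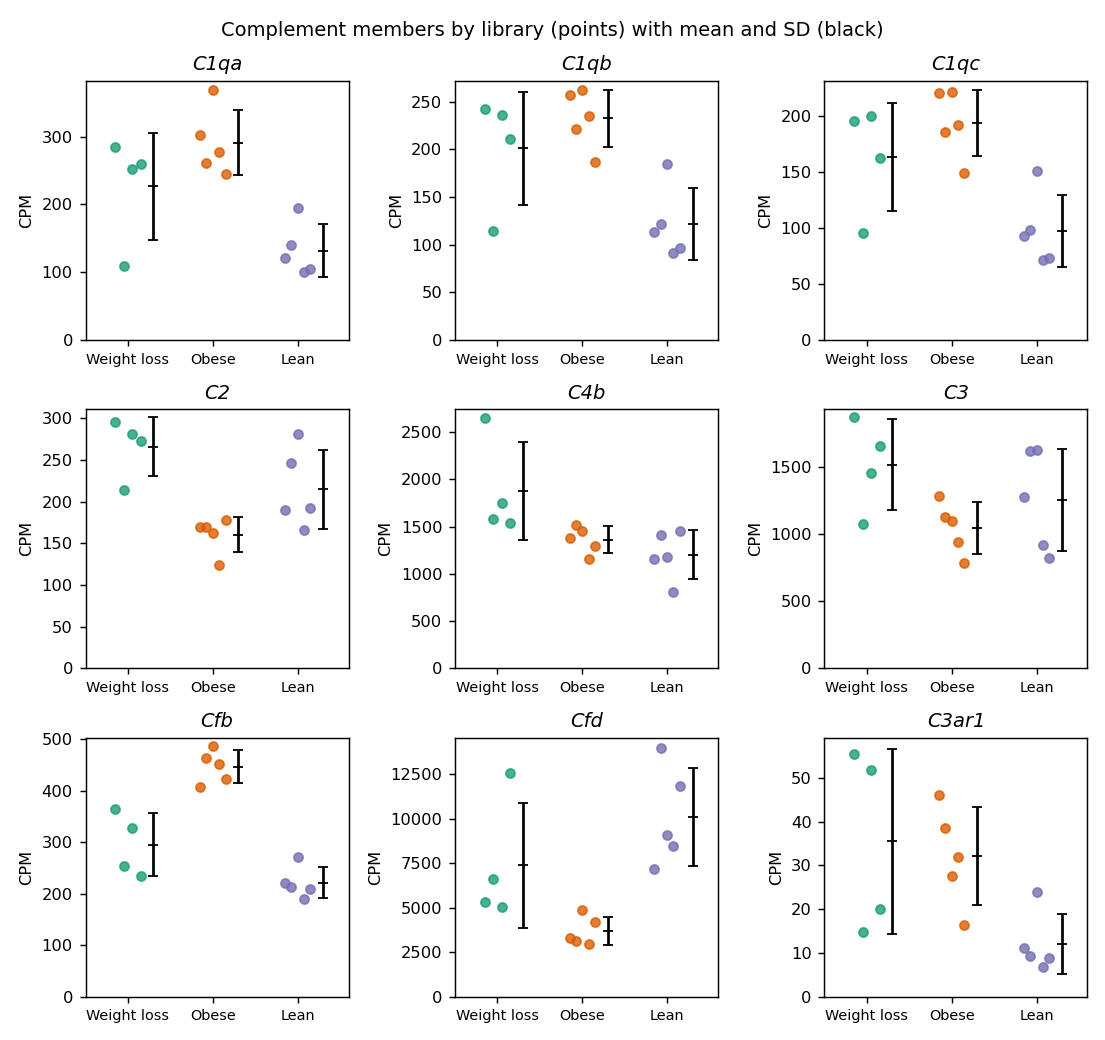
CPM of each member in each library (points; weight loss, obese and lean from left to right) with the group mean and SD in black, each axis starting at 0. C1qa, C1qb and Cfb are higher in each obese than in each lean library and Cfd is lower, while C3 overlaps between all groups.

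The first comparison set obese beside lean fat. The 3 C1q chains, factor B and the C3a receptor rose in obese fat and adipsin fell, while C2, C4b and C3 did not pass the test. Of the 9 members 5 rose and 1 fell (edgeR's quasi-likelihood test, Benjamini-Hochberg adjusted p under 0.05 over all 15208 genes). Over all genes 9.71% were called, 5.86% higher and 3.85% lower. At an unadjusted p under 0.05 stood 7 of the 9 members and 24.8% of all genes. The median log2 fold change was 0.94 over the members and -0.02 over all genes. The members were listed with earlier results of these libraries known, so their count is a description.

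Adipsin, the protease that cleaves factor B, had the highest level and the only fall. Cfd stood at 3323, 3151, 4849, 2939 and 4169 CPM in obese replicates 1 to 5, against 7195, 13965, 9057, 8437 and 11832 CPM in lean replicates 1 to 5. The highest obese library lay below the lowest lean one. C1qa, C1qb and Cfb were higher and Cfd was lower without overlap between obese and lean libraries, 4 of the 9 members, where 10.3% of all genes did not overlap (6.04% higher, 4.31% lower). Cfd was 2.74-fold lower in obese fat, a log2 change of -1.45 ± 0.26 (SE, adjusted p = 0.00334). In bulk tissue fewer cells of a type and less RNA per cell cannot be told apart. The log2 level of Cfd minus the mean log2 level of 10 adipocyte markers was 0.84 ± 0.19 in obese and 2.14 ± 0.25 in lean fat (SD, n = 5 each). These groups did not overlap, with a difference of -1.31, and the exact two-sided permutation test gave p = 0.00794 (0.0238 adjusted over the 6 tests of this kind), the smallest value of 252 arrangements. The mean log2 level of the adipocyte markers themselves was 10.83 to 11.23 in obese and 10.89 to 11.37 in lean libraries.

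Factor B, the substrate of adipsin and the protease of the alternative C3 convertase, moved against it. Cfb stood at 407, 464, 488, 452 and 424 CPM in obese replicates 1 to 5, against 221, 213, 272, 191 and 210 CPM in lean replicates 1 to 5. All obese libraries were above all lean ones, and both groups were narrow. Cfb was 2.02-fold higher in obese fat, a log2 change of 1.01 ± 0.13 (adjusted p = 0.000388), the smallest adjusted p among the members. The ratio of Cfb to Cfd, in CPM, was 0.101 to 0.154 in obese and 0.0153 to 0.0308 in lean libraries. C2, the classical counterpart of factor B, lies 87 bases upstream of Cfb in the direction of transcription. It stood at 124 to 178 CPM in obese and 166 to 281 CPM in lean libraries, a log2 value of -0.42 ± 0.15 (adjusted p = 0.0955). DESeq2's Wald test called C2 lower (adjusted p = 0.045). The Cfb to C2 ratio was 2.37 to 3.65 in obese and 0.865 to 1.16 in lean libraries, with no overlap and no test, since this pair was set side by side after its values were seen. GENCODE M21 lists a transcript unit, Gm20547, that spans both genes on the same strand, and the Zbtb12 gene overlaps C2 on the other. The Cfb and C2 transcripts share no stretch of 50 bases, but how reads of spanning transcripts were assigned is not given in the sources used here.

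**Figure D2:**
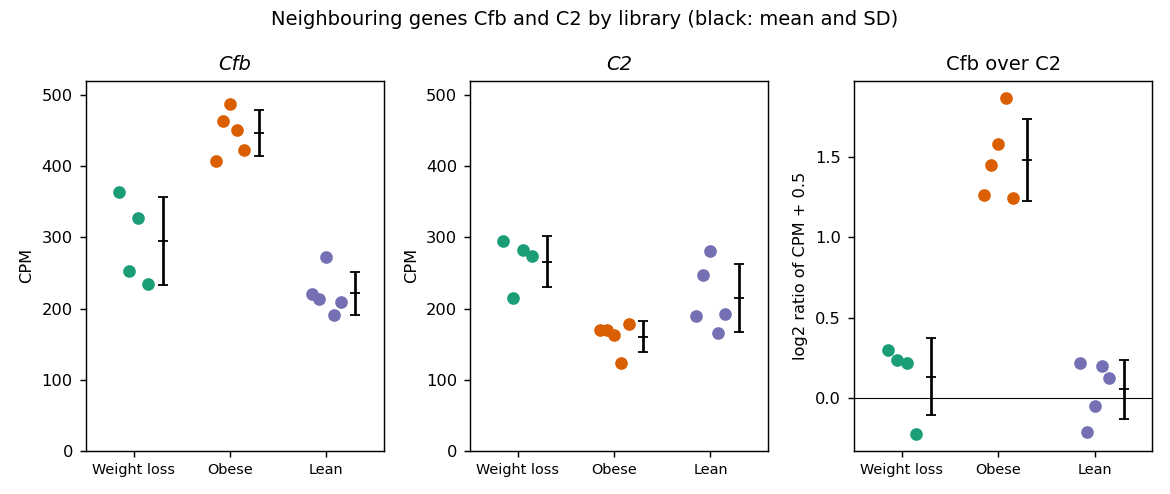
Cfb and C2 in CPM and the log2 ratio of Cfb to C2 in each library (points; mean and SD in black), for weight loss, obese and lean fat from left to right. The ratio is 2.37 to 3.65 in the obese libraries and at or below 1.23 in each weight loss and lean library.

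C1qa, C1qb and C1qc, the chains of the classical recognition molecule, rose by similar amounts. C1qa stood at 302, 261, 369, 278 and 245 CPM in obese replicates 1 to 5, against 121, 140, 195, 99.7 and 105 CPM in lean replicates 1 to 5. C1qb stood at 257, 221, 262, 235 and 187 CPM in obese replicates 1 to 5, against 113, 122, 185, 91.3 and 96.5 CPM in lean replicates 1 to 5. C1qc stood at 149 to 221 CPM in obese and 71.4 to 151 CPM in lean libraries. Obese and lean libraries did not overlap for C1qa and C1qb, and for C1qc lean replicate 3 was just above obese replicate 5. The log2 changes were 1.14 ± 0.24 for C1qa (adjusted p = 0.00924), 0.94 ± 0.22 for C1qb (adjusted p = 0.0154) and 0.99 ± 0.23 for C1qc (adjusted p = 0.0143). C3ar1, the receptor, stood at 46.0, 38.5, 27.6, 32.0 and 16.4 CPM in obese replicates 1 to 5, against 11.2, 9.29, 24.0, 6.90 and 8.94 CPM in lean replicates 1 to 5. Lean replicate 3 reached into the obese range. Its log2 change of 1.40 ± 0.42 had an adjusted p of 0.0457, near the threshold. The call was lost without a filter on low counts (adjusted p = 0.054) and without obese replicate 1, 2, 3 or 4 or lean replicate 1, 2, 4 or 5, with adjusted p values up to 0.106 and log2 values of 1.23 to 1.43.

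Macrophage markers moved with the C1q genes. The 16 markers, none of them a member, all averaged at least 1 CPM in each group and summed to 810 to 1389 CPM in obese and 366 to 837 CPM in lean libraries. The mean log2 level of the C1q genes minus that of the markers was 2.37 ± 0.19 in obese and 2.39 ± 0.11 in lean fat (SD, n = 5 each), a difference of -0.02 (exact two-sided permutation p = 0.833, 0.833 adjusted over 6 tests). With the median of the markers in place of their mean the difference was -0.29 (exact permutation p = 0.0317). Among themselves the C1q genes kept close ratios, C1qc to C1qb between 0.755 and 0.856 and C1qa to C1qb between 0.962 and 1.41 over the 14 libraries. C1qa to C1qb ran from 1.17 to 1.41 in obese and from 1.05 to 1.15 in lean libraries, a difference that was not tested.

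**Figure D3:**
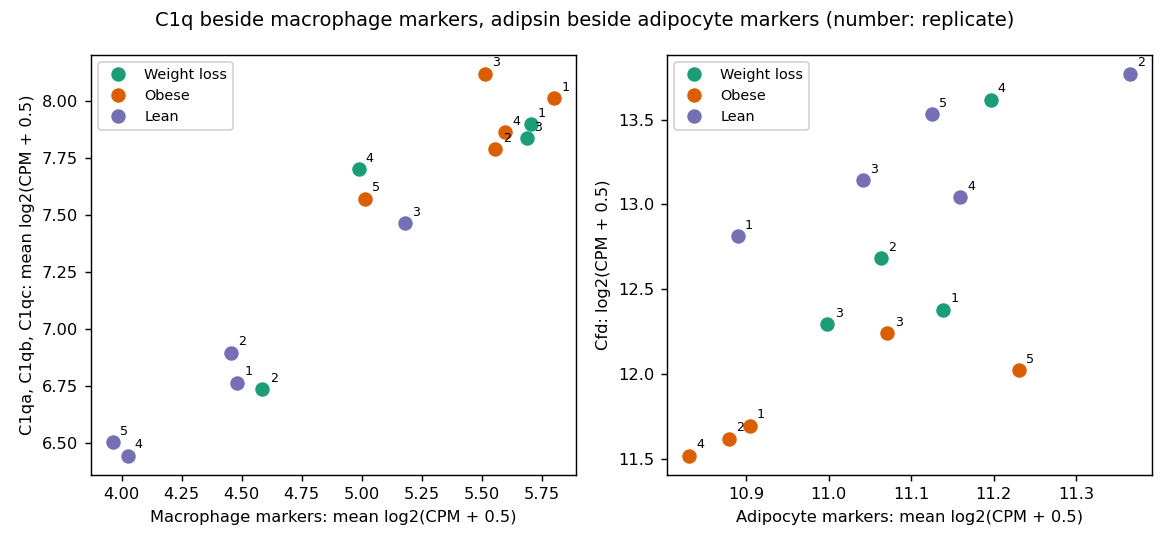
Left: mean log2 level of C1qa, C1qb and C1qc against that of 16 macrophage markers. Right: log2 level of Cfd against the mean of 10 adipocyte markers, with 1 point per library and the replicate number beside it. C1q and the macrophage markers are low together in lean replicates 4 and 5, and the obese libraries hold less Cfd than lean libraries at like adipocyte marker levels.

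C3 and C4b, the abundant central components, were not called in obese against lean fat. C3 stood at 784 to 1285 CPM in obese and 827 to 1628 CPM in lean libraries, a log2 value of -0.26 ± 0.21 (adjusted p = 0.492). C4b stood at 1157 to 1515 CPM in obese and 809 to 1450.3 CPM in lean libraries, a log2 value of 0.18 ± 0.17 (adjusted p = 0.592). C4b has a near copy, C4a, and 34.6% of the 50-base windows of its transcripts also occur in C4a transcripts. The C4a line held 34 to 80 counts per library against 12072 or more for C4b, so C4b values are uncertain by the unknown share of reads that fit both genes.

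With the epididymal level as a covariate C1qa (log2 1.26), C1qb (1.06), C1qc (1.12), Cfb (1.02) and Cfd (-1.36) were still called, with adjusted p values between 0.00426 and 0.0322, and C3ar1 was not (adjusted p = 0.0672). Without the 4 libraries richest in epididymal transcripts, which leaves obese replicates 1 and 3, none of the 9 members was called. The log2 values were then 1.32, 1.07 and 1.17 for C1qa, C1qb and C1qc, 1.02 for Cfb and -1.40 for Cfd, with adjusted p values between 0.0523 and 0.157. The share of all genes called was 3.73% with the covariate and 0.811% without those libraries, so it was lower in both fits.

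**Figure D4:**
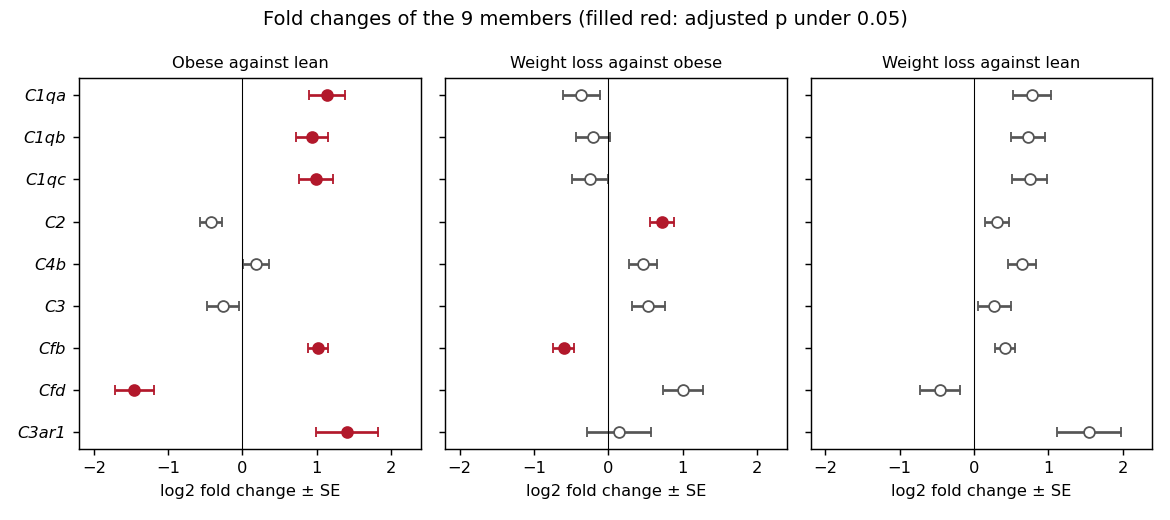
Log2 fold change (point) and standard error (bar) of each member in each comparison, with filled red points for an adjusted p under 0.05. In obese against lean fat 5 members are called higher and Cfd lower, in weight loss against obese fat C2 is called higher and Cfb lower, and in weight loss against lean fat none is called.

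The second comparison asked about the change back to chow, with obese mice kept on the high-fat diet as its base. C2 rose and Cfb fell, and the C1q genes, C4b, C3, Cfd and C3ar1 did not pass. Among all genes 1.62% were called, 0.736% higher and 0.881% lower, against 1 of 9 members in each direction. The median log2 value was 0.15 over the members and 0.02 over all genes. The comparison shares the obese libraries with the one above, so a high or low obese value enters both with opposite sign.

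C2 stood at 295, 214, 282 and 273 CPM in weight loss replicates 1 to 4, against 169, 170, 163, 124 and 178 CPM in obese replicates 1 to 5. Each weight loss library was above each obese one. C2 was 1.66-fold higher after weight loss, a log2 change of 0.73 ± 0.16 (adjusted p = 0.0347). Cfb stood at 364, 253, 328 and 235 CPM in weight loss replicates 1 to 4, all below the 407 to 488 CPM of the obese libraries. It was 1.51-fold lower, a log2 change of -0.60 ± 0.14 (adjusted p = 0.0468). The Cfb to C2 ratio was 0.858 to 1.23 in weight loss libraries, against 2.37 to 3.65 in obese libraries.

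Both adjusted p values lay near the threshold. The C2 call was lost without weight loss replicate 1, 3 or 4 and without any 1 of the 5 obese libraries (adjusted p up to 0.0977, log2 0.65 to 0.76), and with the replicate number as a block (adjusted p = 0.0595) or no filter on low counts (adjusted p = 0.0518). The Cfb call was lost without weight loss replicate 2, 3 or 4, any 1 obese library, or lean replicate 1, 2 or 5 (adjusted p up to 0.153, log2 -0.65 to -0.51), and when library totals alone set the scale (adjusted p = 0.0594), no filter was used (0.0548) or only these groups were fitted (0.0622). With the nearly empty weight loss replicate 5 included, adjusted p was 0.0872 for C2 and 0.0993 for Cfb. With the epididymal level as a covariate adjusted p was 0.494 for C2 and 0.424 for Cfb, at log2 values of 0.65 and -0.60. Leaving out obese replicates 2, 4 and 5 and lean replicate 1 ended both calls, at 0.68 and -0.60.

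Adipsin stood at 5332, 6589, 5027 and 12561 CPM in weight loss replicates 1 to 4, against 2939 to 4849 CPM in obese libraries. The groups did not overlap, and weight loss replicate 4 alone lay inside the upper part of the lean range. The log2 value was 1.00 ± 0.27 with an adjusted p of 0.082, so Cfd did not pass over all genes. DESeq2 (0.00872), limma-voom with sample quality weights (0.0429) and a scale set by library totals alone (0.0476) gave adjusted p values under 0.05. Without weight loss replicate 4 the log2 value was 0.61 (adjusted p = 0.214). Relative to adipocyte markers Cfd was at 1.65 ± 0.54 after weight loss (SD, n = 4) and 0.84 ± 0.19 in obese fat (SD, n = 5). That difference of 0.81 had p = 0.00794 in the exact two-sided permutation test over 126 arrangements, the smallest they can give, and 0.0238 adjusted over 6 tests.

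The C1q genes were spread widely after weight loss. C1qa stood at 285, 110, 252 and 260 CPM in weight loss replicates 1 to 4, against 245 to 369 CPM in obese libraries. Replicate 2 was low and the other 3 were inside the obese range. The log2 values were -0.36 ± 0.25 for C1qa, -0.21 ± 0.23 for C1qb and -0.24 ± 0.24 for C1qc, with adjusted p values between 0.581 and 0.757. Replicate 2 also held the lowest sum of macrophage markers in its group, 538 CPM, while the other 3 held 785 to 1312 CPM. C1q relative to these markers was 2.30 ± 0.28 after weight loss (SD, n = 4) and 2.37 ± 0.19 in obese fat (SD, n = 5), with an exact permutation p of 0.706 (0.833 adjusted over 6 tests).

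C3ar1 stood at 55.4, 14.8, 51.8 and 20.0 CPM in weight loss replicates 1 to 4, against 16.4 to 46.0 CPM in obese libraries. Replicates 1 and 3 were above all obese libraries and replicate 2 below them, and the log2 value was 0.15 ± 0.43 (adjusted p = 0.927). C4b stood at 2646, 1581, 1754 and 1541 CPM in weight loss replicates 1 to 4, each above the obese maximum of 1515 CPM. Its log2 value of 0.47 ± 0.18 did not pass (adjusted p = 0.253). C3 stood at 1877, 1078, 1461 and 1661 CPM in weight loss replicates 1 to 4, against 784 to 1285 CPM in obese libraries (log2 0.54 ± 0.22, adjusted p = 0.28). C2, C4b and Cfd were higher and Cfb was lower without overlap between the groups, 4 of the 9 members, where 6.65% of all genes did not overlap (3.38% higher, 3.27% lower).

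The last comparison set weight loss mice beside mice that had only eaten chow, and shares libraries with both others. None of the 9 members passed edgeR's test, limma-voom also called 0 and DESeq2 called 1, C3ar1 (adjusted p = 0.02). Over all genes 0.0329% were called, and 1.6% by DESeq2. At an unadjusted p under 0.05 stood 6 of the 9 members and 11.4% of all genes. The median log2 value was 0.65 over the members and 0.0033 over all genes. The log2 values were 0.78 ± 0.25 for C1qa (adjusted p = 0.262), 0.73 ± 0.23 for C1qb (adjusted p = 0.249) and 0.75 ± 0.24 for C1qc (adjusted p = 0.256). Without weight loss replicate 2 they were 1.01, 0.92 and 0.93, with adjusted p values of 0.0604, 0.0742 and 0.0911. C3ar1 averaged 35.5 ± 21.1 CPM in the weight loss group (SD, n = 4) against 12.1 ± 6.8 CPM in the lean group (SD, n = 5), a log2 value of 1.55 ± 0.43 (adjusted p = 0.192).

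C4b was the only member whose weight loss and lean libraries did not overlap, at 1541 CPM or more after weight loss and 1450.3 CPM or less in lean fat, where 2.29% of all genes did not overlap (1.58% higher, 0.704% lower). Its log2 value was 0.65 ± 0.18 (adjusted p = 0.2). Cfb averaged 295 ± 61.3 CPM in the weight loss group (SD, n = 4) against 221 ± 30.5 CPM in the lean group (SD, n = 5), with a log2 value of 0.41 ± 0.14 (adjusted p = 0.276). C2 (log2 0.31 ± 0.16) and C3 (log2 0.27 ± 0.22) had adjusted p values of 0.489 and 0.665. Cfd averaged 7377 ± 3521 CPM in the weight loss group against 10097 ± 2749 CPM in the lean group. Its log2 value was -0.45 ± 0.27 (adjusted p = 0.547), and without weight loss replicate 4 the log2 value was -0.87 (adjusted p = 0.092). Relative to adipocyte markers Cfd was at 1.65 ± 0.54 after weight loss and 2.14 ± 0.25 in lean fat, a difference of -0.50 (exact permutation p = 0.143, 0.286 adjusted over 6 tests). Without weight loss replicate 4 that difference was -0.76 (exact permutation p = 0.0179). C1q relative to macrophage markers differed by -0.09 between weight loss and lean fat (exact permutation p = 0.516, 0.774 adjusted over 6 tests), and by -0.23 without weight loss replicate 4 (exact permutation p = 0.0357).

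The rest of the pathway was taken as a list of 48 further components, proteases, regulators and receptors, of which 35 passed the filter on low counts. The 13 that did not included the lectin Mbl1 and the receptor C5ar2, both without a read in the 14 libraries, and Hc, the mouse gene for the fifth component, with 73 reads in all. In obese against lean fat 5 of the 35 rose and none fell, beside 5.86% higher and 3.85% lower of all genes, and the median log2 value was 0.20 against -0.02 over all genes. The risen genes were membrane regulators that protect host cells and subunits of complement receptors. Cd55, which encodes decay-accelerating factor, averaged 34.5 CPM in obese libraries and 13.1 CPM in lean libraries (log2 1.39 ± 0.24, adjusted p = 0.00248). Cd59a, an inhibitor of the membrane attack complex, averaged 208 CPM in obese libraries and 117 CPM in lean libraries (log2 0.83 ± 0.16, adjusted p = 0.00571). Itgax, Itgam and Itgb2 encode the chains of the integrin receptors CR4 and CR3 and had log2 changes of 1.79 ± 0.39, 1.29 ± 0.37 and 1.26 ± 0.38 (adjusted p = 0.0114, 0.0387 and 0.048). The sum of macrophage markers, which was 810 to 1389 CPM in obese and 366 to 837 CPM in lean libraries, moved with these integrin genes, and its part was not tested. Neutrophil markers had a mean log2 level of 1.24 to 1.78 in obese and 0.49 to 0.87 in lean libraries, which did not overlap. Their sums did overlap (26.3 to 31.7 CPM in obese, 21.0 to 34.5 CPM in lean libraries). Of these 6 markers only 3 averaged at least 1 CPM in obese and 2 in lean fat, and Ly6g was at 0. Fibroblast and progenitor markers had a mean log2 level of 7.48 ± 0.26 in obese and 6.82 ± 0.44 in lean fat (SD, n = 5 each). The part of these markers in the 5 calls was not tested either. Cd55, Cd59a and Itgax were the 3 genes called without obese replicate 2, 3 or 4 or without lean replicate 1, 2, 4 or 5, where 5.61% to 9.27% of all genes were called. Without obese replicate 1 the calls were these 3 and Vtn, which encodes vitronectin and was called lower (6.77% of all genes). Without lean replicate 3 there were 9 calls (11% of all genes), and with no filter on low counts Itgb2 was lost.

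The most abundant gene of each other role did not pass edgeR's test in obese against lean fat. Serping1, the C1 inhibitor, was at 0.67 ± 0.26 on the log2 scale (adjusted p = 0.12), and C1s1, a protease of the C1 complex, at 0.44 ± 0.16 (adjusted p = 0.0991). Cfp, which encodes properdin, the stabiliser of the alternative convertase, had 0.76 ± 0.25 (adjusted p = 0.0654). Fcna, the lectin ficolin A, had 1.02 ± 0.51 (adjusted p = 0.237) and C6, of the membrane attack complex, -0.63 ± 0.39 (adjusted p = 0.353). Cd93, the most abundant gene listed with the receptors, had 0.53 ± 0.20 (adjusted p = 0.115). Some of these genes were called higher under other settings. Cfp was called by DESeq2, by limma-voom, in a fit of the obese and lean groups alone, without weight loss replicate 2 and without lean replicate 3. C1s1 was called by limma-voom, with the replicate block and without obese replicate 5, Serping1 by limma-voom and with the block, and Fcna with the block and without lean replicate 3. In weight loss against obese fat edgeR called 0 of the 35, with 5 at an unadjusted p under 0.05 beside 14.3% of all genes. There limma-voom called 0 and DESeq2 1, the regulator C4bp, while they called 3.5% and 4.54% of all genes. In weight loss against lean fat edgeR called 0 of the 35, with 14 at an unadjusted p under 0.05 beside 11.4% of all genes. There limma-voom called 0 and DESeq2 4 (C1s1, C5ar1, Cd55 and Itgax), while they called 0.0197% and 1.6% of all genes. Without weight loss replicate 4 edgeR called Cd55 and Itgax there (0.843% of all genes), and without lean replicate 3 Cd55 (0.105% of all genes).

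**Figure D5:**
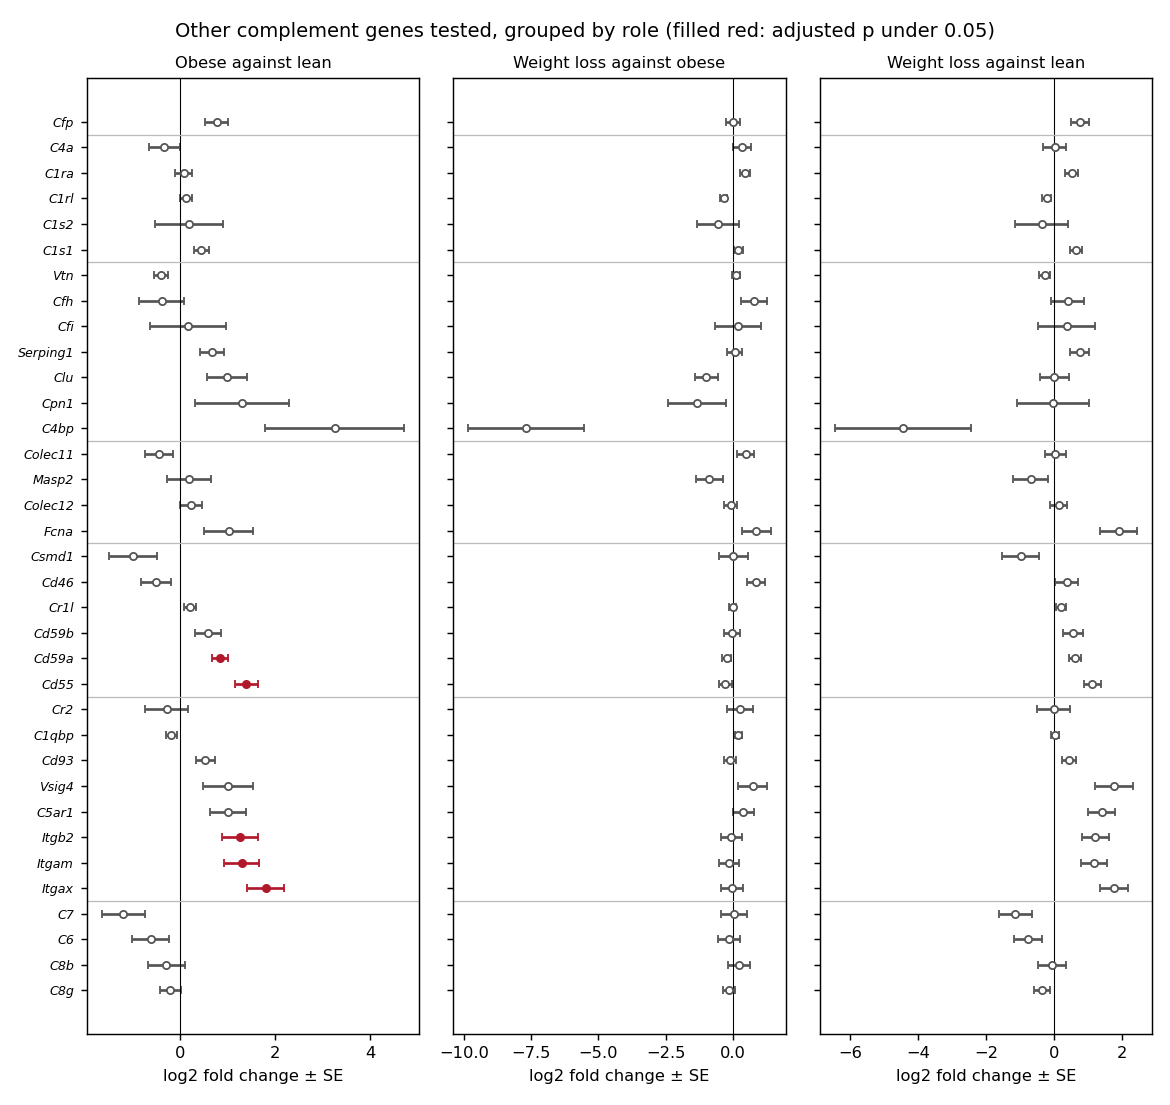
Log2 fold change (point) and standard error (bar) of the 35 other complement genes tested, with filled red points for an adjusted p under 0.05, each panel on its own scale. From top to bottom, lines part properdin, classical proteases and C4a, fluid-phase regulators, lectin pathway, membrane regulators, receptors and terminal components, and the 5 called genes are Cd55, Cd59a, Itgax, Itgam and Itgb2 in obese against lean fat.

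The profiles of Cfd, C1qa and C3 over the 14 libraries were set beside those of other genes by the root mean square difference of log2 CPM after centring, among genes of at least 5 CPM and a spread at least 0.8 times that of the member. Nearest to Cfd, whose own SD was 0.75, were Bcat2, a mitochondrial branched-chain aminotransferase, at 0.16, Cyp2e1, a cytochrome P450, at 0.23 and the clock repressor Ciart at 0.27, out of 1110 genes. The nearest member was C2, at 0.61. Nearest to C1qa (SD 0.65) were its partners C1qb at 0.13 and C1qc at 0.14, and outside the members Tnfaip8l2 at 0.18, Selplg, which encodes a ligand of selectins, at 0.19 and the macrophage marker Laptm5 at 0.19, out of 1531 genes. Nearest to C3 (SD 0.40) were the Wnt ligand gene Wnt2b at 0.15, Ppl, which encodes periplakin, at 0.18 and the classical protease C1ra at 0.21, out of 4774 genes. C2 was the nearest member to C3, at 0.25. These are descriptions over libraries that share the 3 diets.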

How the data were processed

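Poly(A) RNA libraries were aligned by the authors to mm10, per the submitters' processing notes. The sources used here name no aligner, counter or annotation. The authors deposited expected counts per Entrez ID without normalization, and 34.8% of them were fractional. They were summed per ID and rounded. Symbols came from RefSeq (GRCm38.p6) for 32919 of 35794 IDs, and transcript lengths from GENCODE M21. Libraries under 1000000 counts were left out, except in an alternative fit that included weight loss replicate 5. The kept libraries entered 1 edgeR 4.0.16 model (filterByExpr, TMM, glmQLFit, glmQLFTest, R 4.3.3) with 3 group coefficients, in two-sided tests. P-values were adjusted by Benjamini-Hochberg across the 15208 genes tested. Standard errors were derived by dividing the log2 fold change by the root of its F statistic. Ratios to markers used log2(CPM + 0.5) and exact permutation tests. Named were all members, called genes of the pathway list, the most abundant gene of each role and the 3 nearest profiles. Alternatives used DESeq2 1.42.0, limma 3.58.1, other scalings, filters and libraries. The edgeR test was also run on counts simulated with its trended dispersion and independent libraries. That check does not cover outlying libraries or epididymal transcripts in some of them. Members, lists, the minimum total and alternatives were chosen with earlier results of these data known.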

Additional observations from a re-analysis of the deposited data

Results flagged for a closer look

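Each member and each ratio to markers was checked in each group, 33 sets of values, for a library far from the others by Dixon's criterion, which chance meets in about 1 of 20 sets. It was met 4 times. C2 in obese replicate 4 was 124 CPM, below the other 4 obese libraries at 163 to 178 CPM. C3ar1 in lean replicate 3 was 24.0 CPM, above the other 4 lean libraries at 6.90 to 11.2 CPM, and the macrophage markers of that library summed to 837 CPM, the highest of the lean group. The log2 ratio of C1q to macrophage markers was 2.71 in weight loss replicate 4 and 2.15 to 2.19 in the other 3. The log2 ratio of Cfd to adipocyte markers was 1.17 in obese replicate 3 and 0.691 to 0.796 in the other 4 obese libraries.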

How the results depend on the processing

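The 6 members called in obese against lean fat numbered 5 to 6 with 1 library left out and 0 with obese replicates 2, 4 and 5 and lean replicate 1, which held most epididymal transcripts, left out, and the 5 further pathway genes numbered 3 to 9 and 0. The count of further genes was 8 with DESeq2, with limma-voom and with the replicate block, and 3 with the epididymal covariate. The share of all genes called moved too: it was 14.9%, 12.5%, 10.6% and 3.73% in these fits, 9.71% in the one reported and 0.811% without the 4 libraries. With 1 library left out it ran from 5.61% to 11%. For weight loss against obese fat the 2 called members numbered 0 to 2 with 1 library left out (0.914% to 1.76% of all genes). They numbered 1 when only the 2 groups were fitted (1.52%) or with the replicate block (1.13%). The count was 0 without a filter (0.95%), with weight loss replicate 5 included (1.21%), with the epididymal covariate (0.171%) or without those 4 libraries (0.13%). DESeq2 (4.54%) and limma-voom (3.5%) called Cfd higher besides C2 and Cfb. With library totals alone (1.66%) C2 and Cfd were called and Cfb was not. DESeq2 called 1 further pathway gene there. For weight loss against lean fat the counts of 0 became 1 member and 4 further genes with DESeq2 (1.6% of all genes). With 1 library left out there were 0 to 2 further genes (0% to 0.843% of all genes). C3ar1 in weight loss against obese fat was below 0 in 7 of 24 alternatives, between -0.38 (limma-voom) and 0.40 over all of them, and was called in none. C1q over macrophage markers moved to -0.29 (exact permutation p = 0.0317) in obese against lean fat with the median of the markers, and ranged from -0.23 to -0.042 in weight loss against lean fat with 1 library left out. Without those 4 libraries Cfd over adipocyte markers was -1.22 in obese against lean fat (exact permutation p = 0.0667). In weight loss against obese fat it was 0.66 (exact permutation p = 0.133). With only obese replicates 1 and 3 left, neither p could fall below 0.0667. The replicate block gave -1.31 and 0.80 (exact permutation p = 0.0625 and 0.125, the smallest that swaps within 5 and 4 pairs can give). In weight loss against lean fat Cfd over adipocyte markers ranged from -0.76 to -0.36 with 1 library left out. The causes were not tested. In the sample titles, libraries with the same replicate number stand next to each other. Whether they were handled together is not said. Their deviations from the group means correlated between -0.54 and 0.49, which does not settle whether they share more than the number.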

Other observations

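C4bp, which encodes a plasma inhibitor of C4b, was listed among the further regulators and was uneven among the libraries of the obese and lean groups. Its level was 65.5 CPM in obese replicate 2, 198 CPM in obese replicate 4, 57.2 CPM in obese replicate 5 and 27.5 CPM in lean replicate 1, against at most 5.50 CPM in the remaining 10 libraries. These 4 libraries are those with the highest sums of epididymal markers. Obese replicates 1 and 3, with sums of epididymal markers of 9.95 and 450 CPM, held 0.098 and 2.82 CPM of C4bp. Lean replicate 1, on chow, held its 27.5 CPM at a sum of 3339 CPM. The parts of diet and of epididymal transcripts were not tested. The log2 values of C4bp were 3.25 in obese against lean, -7.70 in weight loss against obese and -4.45 in weight loss against lean fat. None was called by edgeR (adjusted p = 0.184, 0.0944 and 0.419). Clu, which encodes clusterin, an inhibitor of the terminal complex, stood at 1575 CPM in obese replicate 4 and at 235 to 364 CPM in the other 13 libraries.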
